A study of Mus musculus with 32 samples.

Results

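The genes described here are 39 genes of DNA replication and of the passage from G1 into S phase, followed in mouse thymocytes after gamma irradiation. Members were chosen by gene name on the array, with the older names Cdc45l, Orc1l and Orc6l accepted. No measured value entered that rule, but the list was drawn up with earlier results of these data known. A probe under a listed name was found for 38 of the 39, on 56 of the 41174 probes. The other member, Gins2, was found only under the clone name 4833427B12Rik, so it is described apart and is left out of all counts over 38 genes. All 38 genes were well above background on all 32 arrays.

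The study compared thymocytes of C57Bl/6 mice, 6 weeks old, that were either left untreated (0 h) or exposed to 5 Gy from a caesium source and examined 2 h or 4 h later. P72 and R72 name mice with the proline or the arginine form of p53 at its common polymorphic codon. For each of these genotypes the labels give 4 independent experiments per time point, each a pool of 2 mice, so 24 arrays in all. The p53+/+ and p53-/- mice, which carry wild-type or no p53 by their label, each had 2 arrays without treatment and 1 at each later time. RNA came from whole thymocyte preparations, so fewer cells of a type and less RNA per cell cannot be told apart in any value below.

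Replication starts with licensing. The origin recognition complex, Cdc6 and Cdt1 load the ring-shaped MCM2-7 helicase onto DNA in G1, and cyclin E and Dbf4-dependent kinases then turn loaded rings into active forks with Cdc45 and the GINS complex. Many of these genes are targets of E2F transcription factors, which are held in check by the retinoblastoma family when the p53 target Cdkn1a (p21) inhibits cyclin-dependent kinases. Thymocytes are known for a strong p53-dependent response to ionising radiation, and the immature ones divide rapidly.

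Levels are given as log2 signal after subtraction of that array's 75th percentile, so a level of 0 is the signal at that percentile and a difference of -1 is a halving. Levels of different genes come from different probes and are not compared. Each difference carries the standard error of the limma fit, and its adjusted p is Benjamini-Hochberg over the 19793 gene names tested. A gene is said to have risen or fallen where that p was under 0.05. With 4 samples a group, these p-values measure the spread between pooled samples of the independent experiments.

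The 75th-percentile signal ran from 268 to 1032 across arrays, and between 52.2% and 71.2% of the probes exceeded background clearly. Cdkn1a, the inhibitor that marks the p53 response, rose 22.3-fold in P72 and 12.8-fold in R72 at 4 h, and 23.1-fold over the 2 irradiated p53+/+ arrays. Its 4 h responses in P72 and R72 differed by 0.80 ± 0.34 on the log2 scale, which did not pass the test (limma, adjusted p = 0.833). On the irradiated p53-/- arrays it was 1.98-fold above the untreated ones, which did not pass the test (adjusted p = 0.169). The Trp53 probe read -0.13 and 0.25 on the untreated p53+/+ arrays and -0.1 and -0.25 on the untreated arrays labelled p53-/- (adjusted p = 0.816). The labels do not say which part of the gene was deleted, so that probe does not check the genotype. The labels give 1 male and 1 female mouse per pool, yet Xist, which is transcribed from the inactive X chromosome of females, lay between -7.92 and -3.73 in replicates 1 and 3 of P72 and R72 and between 5.11 and 5.83 in replicates 2 and 4. It also differed between the untreated p53+/+ arrays, at -1.45 and -0.88, and the irradiated ones, at 5.5. Leaving 12 of the 24 P72 and R72 arrays, those of replicates 1 and 3 alone or of 2 and 4 alone, is reported with the other alternatives.

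At 4 h the replication genes were lower in both codon variants as a group. In P72, 36 of 38 had fallen, against 20.8% of all genes tested. In R72 36 of 38 had fallen, against 16.2% of all genes. None had risen in either (limma, 0 higher at an unadjusted p under 0.05 in each), while 36.4% of all genes rose in P72 and 29.1% in R72. The median difference over the 38 was -0.89 in P72 and -0.83 in R72, where the median of all genes was 0.11 and 0.10. Relative to those medians the genes stood at -1.01 and -0.93, and all 38 lay below the all-gene median in each genotype. The same 36 genes fell in both, and the remaining pair, Rrm2 and Prim2, passed the test in neither. The size of the falls depends on the scaling. With arrays centred on their median the 38 genes had medians of -1.52 and -1.31, all genes had medians of -0.51 and -0.38, and 54.6% of all genes fell in P72 and 47.8% in R72. Such centring shifts all genes of an array alike, so it cannot change the distance from the all-gene median, -1.01 and -0.93. Other processing can. That distance was -0.79 in P72 and -0.71 in R72 with quantile normalization, and -1.15 and -0.68 with normexp background. With the authors' value table it was -0.75 and -0.69.

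The 4 arrays at 4 h lay wholly below the 4 untreated arrays for 34 of the 38 genes in P72 and for 34 in R72. The same was true of 20.9% of all genes in P72 and 16.2% in R72. The groups overlapped for Prim1, Prim2, Rfc2 and Rrm2 in P72, and for Orc1, Pola2, Prim2 and Rrm2 in R72. Among the 13 genes with several usable probes there were 14 further probes, of which 13 were lower at 4 h in both genotypes.

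**Figure D1:**
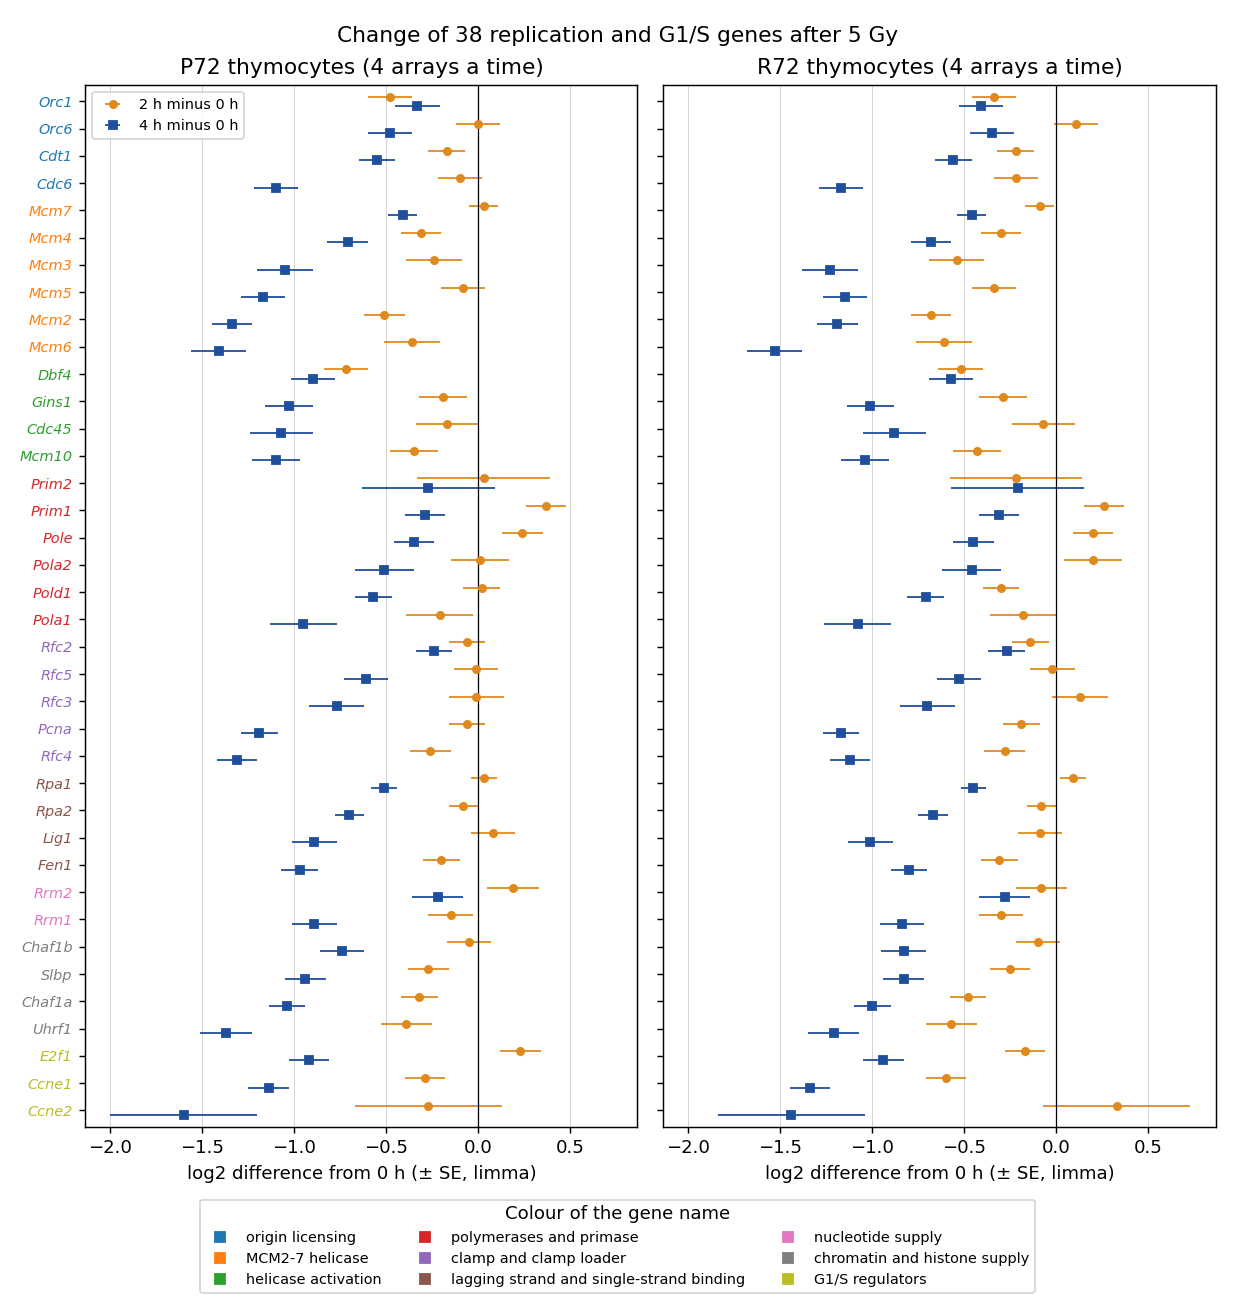
Difference from 0 h on the log2 scale (x axis) for each of the 38 genes (y axis), at 2 h and 4 h, in P72 (left) and R72 (right). Points are limma estimates over 4 arrays a group, bars are 1 standard error, and gene names are coloured by role. The 4 h points lie left of 0 throughout, from -1.60 to -0.22 in P72 and from -1.53 to -0.21 in R72. Most 2 h points lie closer to 0, and Orc1 and Prim1 in P72 and Prim2 in R72 are exceptions.

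Promoter sequence was examined because the genes moved together. RefSeq windows from 250 bases before to 50 bases after the annotated start (mouse build GRCm38.p6) were matched for 32 of the 38 genes. For 4 of them with several windows the first was used. Windows were searched on both strands for 4 forms of the E2F site, TTTCCCGC, TTTGGCGC, TTTCGCGC and TTTGCCGC, and overlapping matches were counted separately. A match was present in 10 of 32 windows (31.2%), against 626 of 27025 windows of all genes (2.32%). GC content ran from 38.7% to 77.3% over the 32 windows. Between 48.7% and 71.2%, which leaves out both ends of that range, a match was present in 9 of 24 windows of these genes (37.5%) and in 3.21% of 15265 windows of all genes. The stretches below show a match of each of those 10 genes in capitals with up to 10 bases on either side. They are shown because such matches were more frequent here than in all windows, although 22 of the 32 windows held none. The coordinates are those of the whole window, and each stretch is read 5′ to 3′ along the strand named.

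Cdc6, chr11:98907901-98908200, plus strand: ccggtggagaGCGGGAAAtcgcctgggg
Cdt1, chr8:122567765-122568064, plus strand: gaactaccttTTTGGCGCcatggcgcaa
Mcm3, chr1:20820263-20820562, minus strand: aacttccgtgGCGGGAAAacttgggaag
Mcm5, chr8:75109259-75109558, plus strand: aagaactttcGCGCCAAAacgtccagcc
Mcm6, chr1:128359656-128359955, minus strand: attggacgggTTTGGCGCgaagtagctc
Mcm7, chr5:138171834-138172133, minus strand: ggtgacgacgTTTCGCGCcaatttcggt
Orc1, chr4:108579204-108579503, plus strand: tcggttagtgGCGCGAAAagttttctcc
Pola1, chrX:93632106-93632405, minus strand: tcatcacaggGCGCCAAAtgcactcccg
Pold1, chr7:44548766-44549065, minus strand: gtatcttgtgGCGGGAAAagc
Rfc3, chr5:151651159-151651458, minus strand: tttcgcgctcGCGGGAAAactctactgt

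Capitals that begin with GCG are the site read on the opposite strand. In these stretches only the match nearest the start is in capitals. A further match can lie in lower-case bases, as TTTCGCGC does in full in Rfc3 and in part in Mcm5. The matches shown lay between 149 bases before the start (Mcm5) and 39 bases after it (Pold1), and that of Rfc3 began at the start itself. Altogether there were 16 matches, and 5 genes had several. Genes with a match spanned nearly the whole range of responses. Their median difference at 4 h, averaged over P72 and R72, was -0.88 (10 genes, from -1.47 in Mcm6 to -0.37 in Orc1), and that of the 22 genes without was also -0.88 (from -1.29 to -0.25). A match is a description of these letters and not evidence that a factor binds there.

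The whole windows of the genes with the largest and the smallest mean falls among those matched are shown to set them side by side. Mcm6 and Uhrf1 fell most. Rrm2 and Prim1 changed least. Capitals mark E2F matches as above, and the longer run in Mcm6 holds overlapping matches.

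Mcm6, chr1:128359656-128359955, minus strand: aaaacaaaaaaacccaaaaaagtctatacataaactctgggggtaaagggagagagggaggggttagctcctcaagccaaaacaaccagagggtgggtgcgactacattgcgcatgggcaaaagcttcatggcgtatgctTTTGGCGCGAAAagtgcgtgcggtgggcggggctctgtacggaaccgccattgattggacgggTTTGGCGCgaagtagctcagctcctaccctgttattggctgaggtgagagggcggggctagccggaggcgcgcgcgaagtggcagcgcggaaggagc
Uhrf1, chr17:56303087-56303386, plus strand: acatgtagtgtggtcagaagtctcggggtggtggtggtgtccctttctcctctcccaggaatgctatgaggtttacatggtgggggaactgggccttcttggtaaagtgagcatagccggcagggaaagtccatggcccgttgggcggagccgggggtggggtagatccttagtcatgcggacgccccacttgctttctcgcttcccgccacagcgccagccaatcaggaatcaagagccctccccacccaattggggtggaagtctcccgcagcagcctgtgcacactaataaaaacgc
Rrm2, chr12:24708004-24708303, plus strand: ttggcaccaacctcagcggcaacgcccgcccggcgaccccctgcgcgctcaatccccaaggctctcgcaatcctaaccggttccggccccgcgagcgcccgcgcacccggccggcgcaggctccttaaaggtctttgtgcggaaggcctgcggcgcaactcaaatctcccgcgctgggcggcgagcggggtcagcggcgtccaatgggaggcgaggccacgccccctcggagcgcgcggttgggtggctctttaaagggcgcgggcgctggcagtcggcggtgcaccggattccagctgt
Prim1, chr10:128014965-128015264, plus strand: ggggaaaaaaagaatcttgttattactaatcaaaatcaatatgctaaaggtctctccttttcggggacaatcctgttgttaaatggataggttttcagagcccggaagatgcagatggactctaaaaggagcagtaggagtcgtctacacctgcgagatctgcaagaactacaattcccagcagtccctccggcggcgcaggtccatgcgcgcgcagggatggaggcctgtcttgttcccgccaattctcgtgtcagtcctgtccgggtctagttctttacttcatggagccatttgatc

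Of these windows only that of Mcm6 held an E2F match, 3 in all. The letters CCAAT were present in 62.5% of the 32 windows against 37.9% of all windows, and GGGCGG, a GC box, in 71.9% against 35.9%. In the narrower range of base composition given above the shares were 66.7% against 37.7% for the former and 70.8% against 48.4% for the latter. TTTGAA, the core of the CHR element found in many late cell-cycle promoters, was present in 12.5% of the windows against 18.1% of all, and within that narrower range in 1 of 24 against 12% of all.

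Licensing factors all fell at 4 h in both genotypes, with medians of -0.51 in P72 and -0.48 in R72 over 4 genes. Cdc6, the ATPase that helps to load the helicase, changed most. Its level was 0.88, 0.74, 0.77 and 0.99 on the untreated P72 arrays and -0.21, -0.37, -0.24 and -0.21 at 4 h. In R72 it was 0.65, 1.02, 0.93 and 0.82 untreated and -0.16, -0.10, -0.62 and -0.41 at 4 h. Every 4 h array was below every untreated array in both. Cdc6 fell by 1.10 ± 0.12 in P72 (adjusted p = 4.14e-07) and by 1.17 ± 0.12 in R72 (adjusted p = 3.73e-07). Cdt1, its partner in loading, fell by 0.55 in P72 and by 0.56 in R72. The origin recognition subunits moved least in this class, with Orc6 lower by 0.48 and 0.35 and Orc1 by 0.33 and 0.41 in P72 and R72.

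All 6 subunits of the MCM2-7 ring fell in both genotypes, with medians of -1.11 in P72 and -1.17 in R72. Mcm2 was at 3.13, 3.03, 3.01 and 3.25 on the untreated P72 arrays, at 2.54, 2.65, 2.53 and 2.66 at 2 h, and at 1.84, 1.76, 1.68 and 1.79 at 4 h. In R72 it went from 3.08, 3.26, 3.25 and 3.09 to 2.75, 2.66, 2.26 and 2.30, and then to 2.14, 2.13, 1.83 and 1.82. The 3 time points did not overlap in either genotype, so Mcm2 was already lower at 2 h and lower again at 4 h. Mcm2 was 2.53-fold lower at 4 h in P72 (-1.34 ± 0.11, adjusted p = 7.48e-09) and 2.28-fold lower in R72 (-1.19 ± 0.11, adjusted p = 7.02e-08). The fitted differences varied among subunits of the same ring. Mcm6 fell by 1.41 ± 0.15 in P72 and 1.53 ± 0.15 in R72, and Mcm5 by 1.17 and 1.15. Mcm3 fell by 1.05 and 1.23. Mcm4 fell by 0.71 and 0.68, and Mcm7 least, by 0.41 ± 0.08 and 0.46 ± 0.08, which is 1.33-fold and 1.38-fold. Whether these subunits differed from each other was not tested.

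The genes that convert loaded rings into active helicases fell as well, with medians of -1.05 in P72 and -0.94 in R72 over Mcm10, Cdc45, Gins1 and Dbf4. Mcm10, which is needed to activate the helicase, was at 2.77, 2.74, 3.06 and 3.18 on the untreated P72 arrays and at 1.90, 1.63, 1.89 and 1.93 at 4 h. In R72 it moved from 2.66, 2.90, 2.99 and 2.84 to 1.96, 1.96, 1.75 and 1.56. The groups were well apart in both genotypes, and the difference was -1.10 ± 0.13 in P72 (adjusted p = 7.76e-07) and -1.04 ± 0.13 in R72 (adjusted p = 3.21e-06). Cdc45, the helicase cofactor, fell by 1.07 in P72 and 0.88 in R72, and Gins1 by 1.03 and 1.01. Gins2, another GINS subunit and the member found under its clone name, fell by 1.53 ± 0.16 in P72 (adjusted p = 3.02e-07) and by 1.49 ± 0.16 in R72 (adjusted p = 8.31e-07).

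Dbf4, the regulatory subunit of the Cdc7 kinase, had its fall early. It stood at 1.5, 1.29, 1.01 and 1.48 on the untreated P72 arrays, at 0.68, 0.56, 0.84 and 0.33 at 2 h and at 0.46, 0.32, 0.35 and 0.55 at 4 h. In R72 it stood at 1.23, 1.49, 1.16 and 1.46, then at 0.76, 0.74, 0.83 and 0.94, then at 0.82, 0.68, 0.65 and 0.92. Both irradiated groups lay below the untreated one, and they overlapped each other. Between 2 h and 4 h the difference was -0.18 ± 0.12 in P72 and -0.05 ± 0.12 in R72, neither of which passed the test (adjusted p = 0.254 and 0.804).

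Polymerase and primase genes moved least, with medians of -0.43 in P72 and -0.46 in R72 over 6 genes, of which 5 fell in each. Pold1, the catalytic subunit of polymerase delta, was at 3.47, 3.59, 3.79 and 3.63 on the untreated P72 arrays and at 3.04, 2.97, 3.06 and 3.13 at 4 h. On the R72 arrays it was at 3.46, 3.62, 3.81 and 3.61 untreated and at 3.02, 3.03, 2.86 and 2.73 at 4 h. The groups did not overlap, and the falls were 0.57 ± 0.10 in P72 (adjusted p = 5.34e-05) and 0.71 ± 0.10 in R72 (adjusted p = 1.05e-05). The polymerase alpha catalytic subunit Pola1 fell more, by 0.95 in P72 and 1.08 in R72. Its accessory subunit Pola2 fell by 0.51 and 0.46, and Pole, the catalytic subunit of polymerase epsilon, by 0.35 and 0.45. Prim2, the large primase subunit, varied widely even before irradiation, from 0.60 to 2.47 over the untreated P72 arrays, and its difference of -0.27 ± 0.36 did not pass the test.

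Prim1, the catalytic primase subunit, was the only one of the 38 that rose in any time comparison within P72 or R72. Its level was 3.65, 3.67, 4.04 and 3.98 on the untreated P72 arrays, 4.02, 4.16, 4.36 and 4.27 at 2 h, and 3.46, 3.37, 3.65 and 3.70 at 4 h. In R72 it was 3.68, 3.93, 3.96 and 3.79, then 4.10, 4.00, 4.07 and 4.23, then 3.61, 3.59, 3.36 and 3.56. The mean was highest at 2 h in both genotypes. In P72 the 2 h arrays overlapped the untreated ones slightly, and in R72 they lay wholly above them. The rise at 2 h in P72 was 0.37 ± 0.11 (adjusted p = 0.0247), and leaving out untreated replicate 1 or 2, or 2 h replicate 3 or 4, ended the call (0.31 to 0.34, adjusted p = 0.0669 to 0.0908). So did normexp background correction (0.36, adjusted p = 0.397) and centring on the array median (0.16, adjusted p = 0.402). In R72 the difference at 2 h was 0.26 ± 0.11 and did not pass the test (adjusted p = 0.119). By 4 h Prim1 had fallen below its untreated level, by 0.29 in P72 and 0.31 in R72.

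The sliding clamp and its loader fell in full, with medians of -0.77 in P72 and -0.70 in R72 over Pcna and 4 replication factor C subunits. Rfc4 was at 3.25, 3.28, 3.43 and 3.49 on the untreated P72 arrays and at 2.12, 1.84, 2.13 and 2.12 at 4 h. In R72 it moved from 3.14, 3.33, 3.19 and 3.28 to 2.28, 2.17, 1.93 and 2.07. The groups lay far apart in both, and Rfc4 fell by 1.31 ± 0.11 in P72 (adjusted p = 1.81e-08) and by 1.12 ± 0.11 in R72 (adjusted p = 2.84e-07). Pcna, the clamp itself, was at 6.57, 6.41, 6.58 and 6.67 on the untreated P72 arrays, at 6.21, 6.55, 6.72 and 6.53 at 2 h and at 5.33, 5.19, 5.45 and 5.51 at 4 h. In R72 the values were 6.39, 6.59, 6.57 and 6.54, then 6.34, 6.23, 6.27 and 6.49, then 5.49, 5.30, 5.21 and 5.41. Pcna thus overlapped its untreated level at 2 h and lay entirely below it at 4 h, where it had fallen by 1.19 ± 0.10 in P72 (adjusted p = 2.26e-08) and 1.17 ± 0.10 in R72 (adjusted p = 4.78e-08). The other loader subunits fell less. Rfc3 was lower by 0.77 and 0.70, Rfc5 by 0.61 and 0.53, and Rfc2 by 0.24 and 0.27, in P72 and R72.

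On the lagging strand, all 4 genes fell, with medians of -0.79 in P72 and -0.73 in R72. The flap endonuclease Fen1, which trims Okazaki fragments, was at 2.63, 2.51, 2.60 and 2.65 on the untreated P72 arrays and at 1.76, 1.5, 1.66 and 1.56 at 4 h. In R72 it went from 2.35, 2.64, 2.61 and 2.71 to 1.78, 1.84, 1.76 and 1.71. No 4 h array reached an untreated one, and the falls were 0.97 ± 0.10 (adjusted p = 2.07e-07) and 0.80 ± 0.10 (adjusted p = 4.40e-06). Lig1, which seals the fragments, fell by 0.89 in P72 and 1.01 in R72. The single-strand binding subunits Rpa2 and Rpa1 fell by 0.70 and 0.51 in P72 and by 0.67 and 0.45 in R72.

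The subunits of ribonucleotide reductase, which makes deoxynucleotides, differed in outcome. Rrm1, the large subunit, was at 3.87, 3.74, 4.07 and 4.17 on the untreated P72 arrays and at 3.06, 2.91, 3.19 and 3.13 at 4 h. In R72 it was at 3.91, 4.23, 4.33 and 4.07 and then at 3.46, 3.45, 3.14 and 3.13. It was lower on every 4 h array, by 0.89 ± 0.12 in P72 (adjusted p = 4.12e-06) and 0.84 ± 0.12 in R72 (adjusted p = 1.66e-05). Rrm2, the small subunit, was at 2.98, 2.99, 3.11 and 3.32 untreated and at 2.87, 2.68, 2.81 and 3.14 at 4 h in P72. In R72 it was at 3.14, 3.51, 3.33 and 3.49 and then at 3.28, 3.34, 2.86 and 2.87. The groups overlapped in both genotypes, and neither difference passed the test, at -0.22 ± 0.14 (adjusted p = 0.175) and -0.28 ± 0.14 (adjusted p = 0.108). The difference between the subunits was not tested.

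Genes that rebuild chromatin behind the fork all fell, with medians of -0.99 in P72 and -0.91 in R72 over 4 genes. Chaf1a, the large subunit of chromatin assembly factor 1, was at 1.72, 1.65, 1.87 and 1.89 on the untreated P72 arrays, at 1.17, 1.46, 1.63 and 1.58 at 2 h and at 0.72, 0.70, 0.80 and 0.77 at 4 h. In R72 it was at 1.60, 1.90, 1.81 and 1.79, then at 1.26, 1.32, 1.34 and 1.25, then at 0.93, 0.94, 0.66 and 0.58. The levels stepped down at each time point without overlap in both genotypes. By 4 h Chaf1a had fallen by 1.04 ± 0.10 in P72 (adjusted p = 9.92e-08) and by 1.00 ± 0.10 in R72 (adjusted p = 3.45e-07). Its partner Chaf1b fell by 0.74 and 0.83. Uhrf1, which guides maintenance DNA methylation, fell by 1.37 and 1.21, and Slbp, which binds the stem-loop of histone mRNAs, by 0.94 and 0.83.

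The regulators of S-phase entry had the lowest class medians, -1.14 in P72 and -1.34 in R72 over cyclins E1 and E2 and E2f1. Cyclin E1 (Ccne1) was at 2.84, 2.91, 2.98 and 3.00 on the untreated P72 arrays and at 1.78, 1.71, 1.82 and 1.87 at 4 h. In R72 it was at 2.86, 3.08, 3.03 and 2.99 and then at 1.78, 1.86, 1.48 and 1.49. These groups were separated by most of their total range, and the falls were 1.14 ± 0.11 (adjusted p = 7.01e-08) and 1.34 ± 0.11 (adjusted p = 1.47e-08). Cyclin E2 (Ccne2) had the largest difference in P72, -1.60 ± 0.40, and -1.44 ± 0.40 in R72. Its spread was wide at 2 h, from -1.88 to 0.71 over the R72 arrays. E2f1, the transcription factor, was lower by 0.92 ± 0.11 in P72 and 0.94 ± 0.11 in R72 at 4 h.

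**Figure D2:**
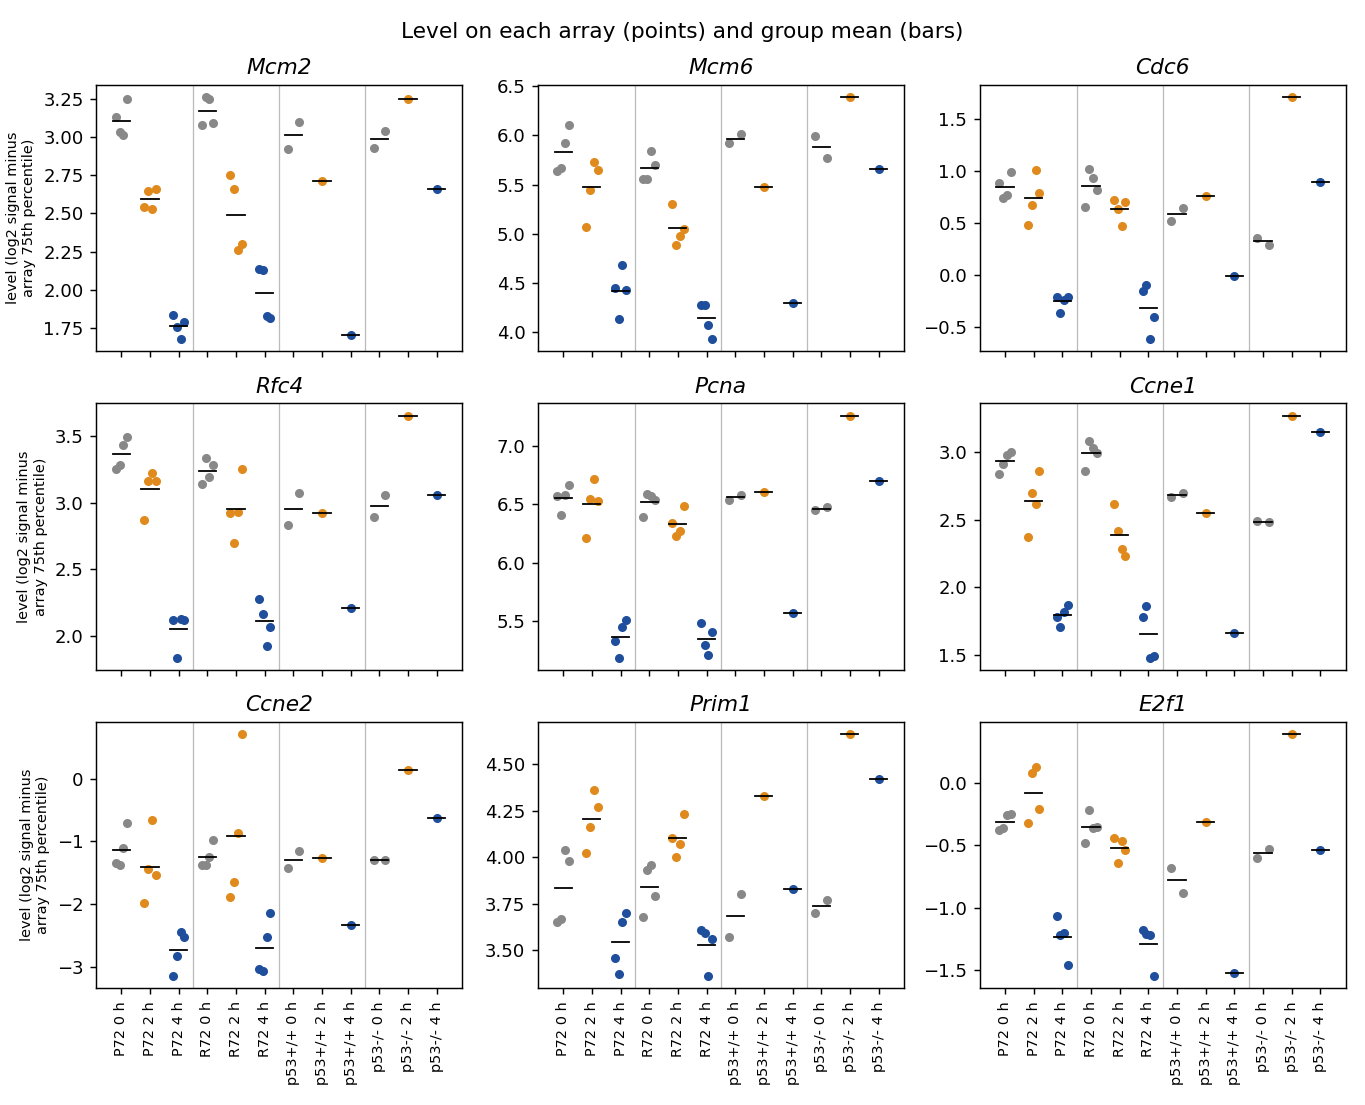
Level of 9 genes (log2 signal minus the array's 75th percentile, y axis) in the 12 groups of genotype and time (x axis). Each point is an array and each bar is the group mean; p53+/+ and p53-/- have 2 untreated arrays and 1 array at each later time. In P72 and R72 the 4 h points of Mcm2, Mcm6, Cdc6, Rfc4, Pcna, Ccne1, Ccne2 and E2f1 all lie below the untreated points, and Prim1 peaks at 2 h.

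The change was mostly made between 2 h and 4 h. At 2 h, 4 genes had fallen in P72 (4.91% of all genes fell) and 1 had risen (9.77% of all genes rose), with a median of -0.13. In R72, 10 had fallen (7.06% of all genes), with a median of -0.22, and none had risen (limma, 1 higher at an unadjusted p under 0.05, 6.23% of all genes rose). From 2 h to 4 h, 34 fell in P72 (10.7% of all genes) and 33 in R72 (4.94% of all genes), with medians of -0.73 and -0.60. The genes lower at 2 h in P72 were Dbf4 (-0.72), Mcm2 (-0.51), Orc1 (-0.48) and Chaf1a (-0.32). In R72 they were Mcm2 (-0.68), Mcm6 (-0.61), Ccne1 (-0.60), Uhrf1 (-0.57), Mcm3 (-0.54), Dbf4 (-0.52), Chaf1a (-0.48), Mcm10 (-0.43), Fen1 (-0.31) and Pold1 (-0.30). The genotypes shared 3 of these, which is 3 of 4 in P72 and 3 of 10 in R72. Without untreated replicate 1 the P72 count was 3 of 38 in place of 5, and without untreated replicate 3 or 4 the R72 count was 6. With normexp background correction, which models local background, the 2 h counts were 2 in P72 and 0 in R72 (limma, 5 lower and 3 higher at an unadjusted p under 0.05), so the calls at 2 h depended on the background method.

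Most slides held arrays of a genotype at several times. Within a slide, the median difference at 4 h over the 38 genes was -0.82 and -0.94 in P72 and -0.82 and -0.91 in R72, with 37 or 38 of 38 genes lower in each. Of all genes, 43.6% and 43.4% were lower in P72 and 44% and 41.1% in R72, with medians from 0.08 to 0.13. At 2 h the medians over the 38 genes were -0.28 and -0.10 in P72 and -0.38 and -0.10 in R72, the first of each pair from the earlier scan date. Those of all genes were 0.08 and -0.01 in P72 and 0.05 and 0.01 in R72.

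Few differences between P72 and R72 were found. No gene of the 38 differed between the genotypes before irradiation (limma, 0 of 38 at an unadjusted p under 0.05, smallest adjusted p = 0.584), where 0.92% of all genes did. None differed at 4 h (limma, 2 of 38 at an unadjusted p under 0.05, smallest adjusted p = 0.179), where 1.27% of all genes did. The response itself, which is the change from 0 h in P72 minus that in R72, differed for no gene at 2 h (limma, 2 of 38 at an unadjusted p under 0.05, smallest adjusted p = 0.931, 0.00505% of all genes) and for none at 4 h (limma, 0 of 38 at an unadjusted p under 0.05, smallest adjusted p = 0.903, 0% of all genes). The 4 h response differences ran from -0.33 in Dbf4 to 0.20 in Ccne1, with a median standard error of 0.17. Differences of that size, and also clearly larger ones, could not be resolved. Even Cdkn1a, with a response difference of 0.80 ± 0.34 at 4 h, did not pass this test (limma, adjusted p = 0.833). Across the 38 genes, which are not independent replicates, the 4 h changes of P72 and R72 had a Pearson r of 0.948 and a Spearman rho of 0.953. These comparisons share no arrays.

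E2f1 was the only gene of the 38 called between the genotypes at a time point. At 2 h it was at -0.32, 0.08, 0.13 and -0.21 in P72 and at -0.44, -0.64, -0.47 and -0.54 in R72. Every P72 array was above every R72 array, and the difference was 0.44 ± 0.11 (adjusted p = 0.0464, 0.652% of all genes higher in P72 at 2 h). The call was lost without P72 replicate 2, 3 or 4 or without R72 replicate 2, 3 or 4 (0.37 to 0.48, adjusted p = 0.0639 to 0.139). The difference between the responses of E2f1 at 2 h was 0.40 ± 0.15 and did not pass the test (adjusted p = 0.931).

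**Figure D3:**
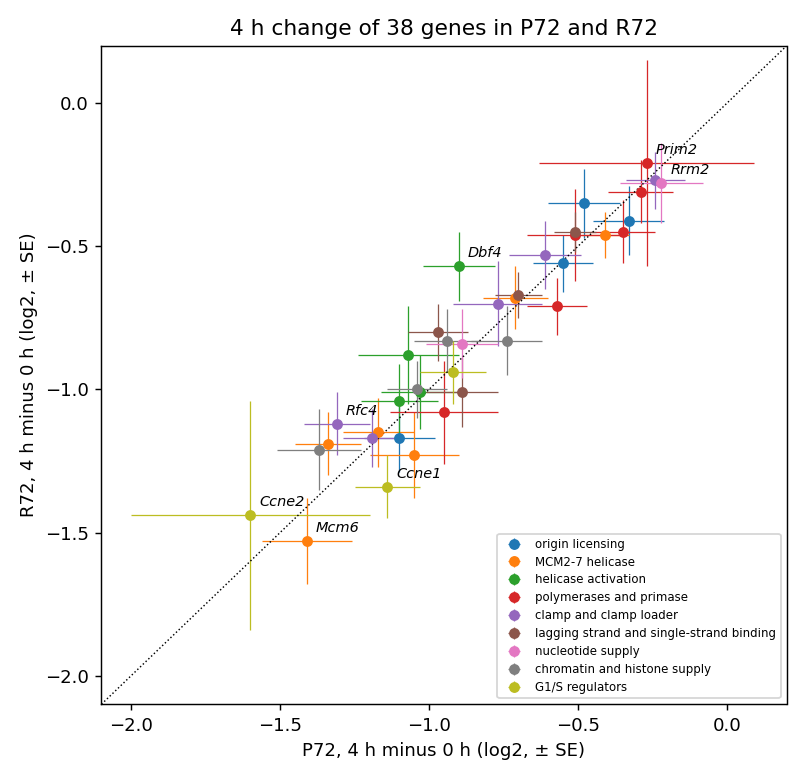
Difference at 4 h from 0 h in R72 against the same in P72, both on the log2 scale, for the 38 genes. Bars are 1 standard error and the dotted line marks equal change. Points follow the line (Pearson r 0.948 across genes), and Ccne2, with standard errors of 0.40, is the least certain.

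The p53+/+ and p53-/- arrays separated. Before irradiation none of the 38 genes differed between them (limma, 1 of 38 at an unadjusted p under 0.05, smallest adjusted p = 0.323, against 0.702% of all genes). Over the 2 irradiated arrays, 9 genes had fallen in p53+/+ (10.7% of all genes), with a median of -0.22, and none had risen (limma, 2 higher at an unadjusted p under 0.05, 13.1% of all genes rose). In p53-/- 8 had risen (0.733% of all genes), with a median of 0.43, and none had fallen (limma, 0 lower at an unadjusted p under 0.05, 0.344% of all genes fell). The difference of these responses was called for 15 genes, all lower in p53+/+ (2.26% of all genes), with a median of -0.71. On the irradiated arrays alone, 32 of 38 genes were lower in p53+/+ than in p53-/- (9.02% of all genes). Each irradiated group holds 1 array per time, so these fits assume that the lone arrays vary like those of the other groups, and slide and genotype largely coincide. Xist lay at 5.5 on the irradiated p53+/+ arrays, at -1.45 and -0.88 on the untreated ones, and between -8.82 and -7.2 in p53-/-. Irradiation in p53+/+ and the comparisons of these genotypes therefore cannot be told apart from the sex make-up of the pools. The response difference was called for 4 genes with normexp background (0.404% of all genes lower) and 5 with slide as a block. With arrays centred on their median it was called for 30, all lower, where 9.86% of all genes were lower and their median was -0.31. The split in p53+/+ over its irradiated arrays also moved. Quantile normalization gave 5 lower and 3 higher (9.56% and 8.61% of all genes). Median centring gave 26 lower and 0 higher (limma, 0 higher at an unadjusted p under 0.05), where 33.7% of all genes fell and 6.68% rose. The all-gene median was then -0.32, and the median of the 38 genes lay at -0.30 from it, a distance that this centring cannot change. That distance was -0.14 with quantile normalization and -0.46 with normexp background.

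Single arrays, with no test, gave the values at each time. At 2 h the p53+/+ array was lower than the mean of its untreated arrays for 17 of 38 genes and higher for 21, with a median of 0.04. At 4 h it was lower for 32, with a median of -0.53. The p53-/- array at 2 h was higher for 37 of 38 genes, with a median of 0.68, and at 4 h for 32, with a median of 0.23. The median was lower at 4 h than at 2 h in both genotypes. Of all genes, 51% were lower at 2 h and 41.8% at 4 h in p53+/+, and 52% and 51.9% in p53-/-.

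**Figure D4:**
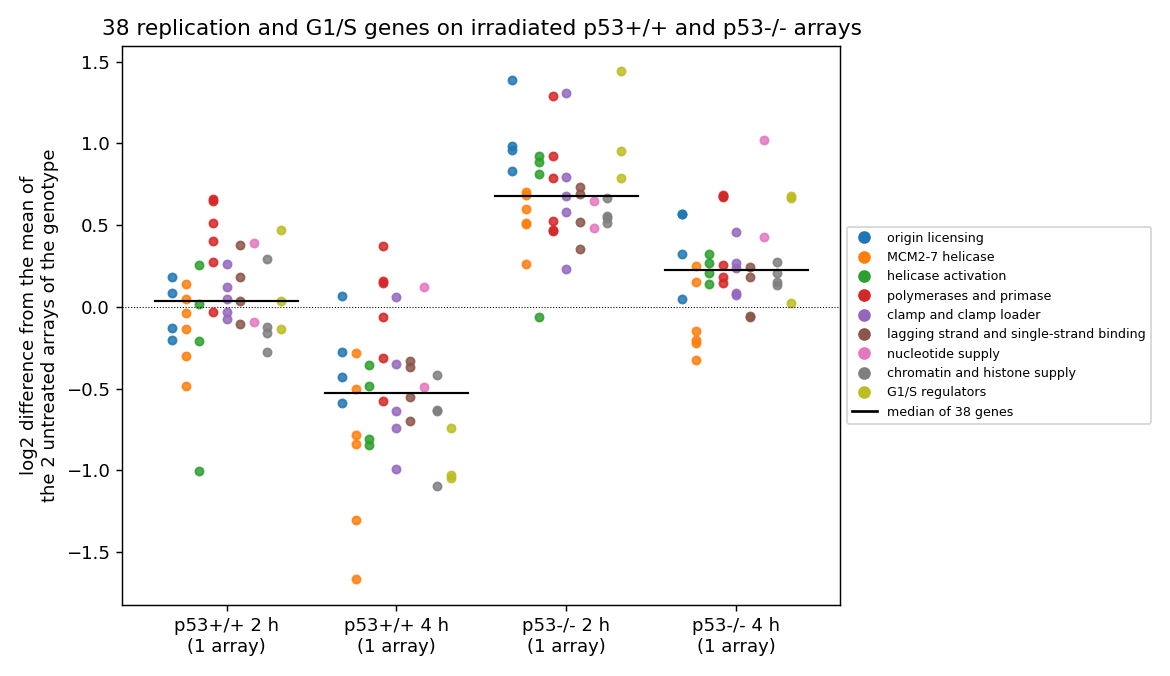
Difference of each of the 38 genes from the mean of the 2 untreated arrays (log2, y axis) on the 4 irradiated arrays of p53+/+ and p53-/- mice (x axis). Points are genes and bars are medians, which stand at 0.04 and -0.53 in p53+/+ and at 0.68 and 0.23 in p53-/- at 2 h and 4 h.

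The clearest differences between these responses were in Ccne1, Cdc6 and Pcna. Ccne1 read 2.67 and 2.70 on the untreated p53+/+ arrays, 2.55 at 2 h and 1.66 at 4 h. On the p53-/- arrays it read 2.49 and 2.48, then 3.27 and 3.15. It was thus below its untreated level in p53+/+ and above it in p53-/- at both times, and the responses differed by -1.31 ± 0.20 (adjusted p = 0.000323). Cdc6 read 0.52 and 0.64, then 0.76 and -0.01 in p53+/+, and 0.35 and 0.29, then 1.71 and 0.89 in p53-/-. Its level was higher on the 2 h array of both and was below the untreated level only on the 4 h p53+/+ array, a response difference of -1.19 ± 0.23 (adjusted p = 0.00297). Pcna read 6.54 and 6.58, then 6.61 and 5.57 in p53+/+, and 6.45 and 6.48, then 7.26 and 6.70 in p53-/-. Only the 4 h p53+/+ array was low, and the responses differed by -0.99 ± 0.19 (adjusted p = 0.00349). With normexp background the Pcna call was lost (-1.02 ± 0.34, adjusted p = 0.194).

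The genes that rose in p53-/- were Cdc6 (0.98), Pole (0.98), Rfc3 (0.88), Rrm2 (0.84), Prim1 (0.80), Orc6 (0.76), Ccne1 (0.73) and Cdt1 (0.66). They include 3 of the 4 licensing factors. None of the 6 MCM2-7 subunits was called there, and Mcm2 was the lowest of them (-0.03 ± 0.15). At 4 h alone, 18 of 38 genes had fallen in p53+/+ (11.1% of all genes), and none was called in p53-/- (limma, 8 of 38 at an unadjusted p under 0.05, 0.253% of all genes). The 4 h responses differed for 9 genes, all lower in p53+/+ (1.07% of all genes). They were Ccne1 (-1.70), Mcm6 (-1.44), Uhrf1 (-1.30), Pcna (-1.23), Cdc6 (-1.16), Gins1 (-1.13), Dbf4 (-0.99), Mcm2 (-0.98) and Fen1 (-0.88). In p53+/+ at 4 h the MCM2-7 class had 5 of 6 genes lower with a median of -0.82, while no polymerase or primase gene of 6 was called and their median was 0.03. Gins2, again under its clone name, was lower by 1.35 ± 0.27 in p53+/+ (adjusted p = 0.000981) and differed by -0.20 ± 0.27 in p53-/-.

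These p53 counts rest on few arrays. Without untreated p53+/+ replicate 1 or 2 the 9 genes that fell in p53+/+ were 5 or 4, and without replicate 2 the 18 at 4 h were 11. Without untreated p53-/- replicate 1 or 2 the 8 that rose were 1 or 2. The 15 response differences became 4 without untreated p53+/+ replicate 2, 7 without p53-/- replicate 1 and 6 without p53-/- replicate 2, and the 9 at 4 h became 2, 2 and 4. Within a slide the medians kept the same signs at 4 h, at -0.48 for p53+/+ and 0.20 for p53-/-, each against the untreated array on its own slide. Those of all genes were 0.15 and -0.03. Centring each array on its median gave 30 response differences and 32 at 4 h (9.86% and 14.6% of all genes lower), in place of 15 and 9 (2.26% and 1.07%).

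Genes outside the list that serve the same processes moved with it. Of 37 other replication genes, 28 fell and 1 rose at 4 h in P72, with a median of -0.47, where 20.8% of all genes fell and 36.4% rose. In R72 28 fell and 1 rose, with a median of -0.52, where 16.2% of all genes fell and 29.1% rose. Hells, a chromatin remodeller of dividing lymphoid cells, fell by 1.55 ± 0.11 in P72 (adjusted p = 2.71e-09) and by 1.31 ± 0.11 in R72. Nasp, a histone chaperone, fell by 1.08 and 0.83, Dut, which removes dUTP, by 1.18 and 1.02, and the histone chaperone Asf1b by 0.93 and 0.94. The gene that rose was Pold4, the small subunit of polymerase delta, at 0.54 ± 0.13 in P72 (adjusted p = 0.00156) and 0.33 ± 0.13 in R72 (adjusted p = 0.0432), and it was named after its values were seen. Its rise depends on the scaling. With arrays centred on their median, the all-gene median at 4 h was -0.51 in P72, in place of 0.11. In R72 it was -0.38 in place of 0.1. That shift applies to every gene and is larger than the rise of Pold4 in each genotype. Over the 2 irradiated p53-/- arrays, 10 of the 37 rose, against 0.733% of all genes.

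Of 27 other G1/S regulators, 14 fell and 5 rose at 4 h in P72, and 12 fell and 4 rose in R72, against the same shares of all genes. Cdk4, the cyclin D partner, fell by 1.27 ± 0.09 in P72 (adjusted p = 2.98e-09) and by 1.07 ± 0.09 in R72 (adjusted p = 5.54e-08). Tfdp1, the dimer partner of E2F proteins, fell by 0.81 and 0.71, and Mybl2, a cell-cycle transcription factor, by 0.93 and 0.98. Cdkn1a was at -3.67, -2.44, -2.59 and -3.32 on the untreated P72 arrays, at 1.16, 1.44, 0.92 and 1.28 at 2 h and at 1.29, 1.57, 1.57 and 1.44 at 4 h. On the p53-/- arrays it was at -3.41 and -3.30 untreated, at -2.57 at 2 h and at -2.17 at 4 h. Cdkn1a had nearly its whole rise by 2 h in P72 (4.21 ± 0.24 of 4.48 ± 0.24), when 4 of the 38 replication genes had fallen (4.91% of all genes). In R72 it had risen by 3.33 ± 0.24 at 2 h and 3.68 ± 0.24 at 4 h, and 10 of the 38 had fallen at 2 h (7.06% of all genes). With median centring 12 had fallen at 2 h in P72 (15%) and 13 in R72 (11.4%). With normexp background 2 had fallen in P72 (0.95%) and 0 in R72 (limma, 5 lower at an unadjusted p under 0.05, 0.687% of all genes). A link between these timings was not tested.

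Markers of thymocytes and of other cells were measured on the same arrays, and their counts are to be read against the 36.4% of all genes that rose and 20.8% that fell at 4 h in P72, and the 29.1% and 16.2% in R72. Counts and sums depend on the scaling. With arrays centred on their median, the all-gene median at 4 h was -0.51 in P72, in place of 0.11. In R72 it was -0.38 in place of 0.1. Relative to the untreated arrays, the 4 h sums would be lower by that shift, for every list alike. Of 10 thymocyte markers, 1 rose and 3 fell at 4 h in P72, and 2 rose and 2 fell in R72; their summed linear level, in units of the array's 75th percentile, was 973 to 1220 untreated and 1060 to 1160 at 4 h in P72, and 991 to 1140 and 1120 to 1180 in R72. Of 6 markers of double negative thymocytes, 4 rose and 1 fell in each genotype, and the sum was 5.53 to 9.83 untreated and 7.4 to 10.4 at 4 h in P72 and 5.57 to 9.73 and then 6.41 to 7.54 in R72. Of 6 thymic epithelial markers 4 rose in P72 and 2 in R72, with sums of 5.14 to 12.6 before and 29.2 to 39 at 4 h in P72 and 14.7 to 19 and 29.2 to 49.5 in R72. Of 6 macrophage markers 5 rose in P72 and 3 in R72, with sums of 25.3 to 48.8 and then 70.2 to 96.2 in P72 and of 43.6 to 65.5 and then 63.2 to 97.7 in R72.

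All 5 neutrophil markers tested of 6 rose in P72 and none in R72 (limma, 1 higher at an unadjusted p under 0.05), with sums of 33 to 58.3 and then 65.6 to 134 in P72 and of 63.8 to 81.7 and then 62.7 to 128 in R72. The 4 h responses of P72 and R72 were not called different for any of the 5, nor for any macrophage or epithelial marker (0% of all genes). Before irradiation the 5 had a median of -1.01 in P72 against R72, and none was called (0.92% of all genes). Dendritic cell markers had 3 of 6 higher in each genotype, with sums of 0.734 to 0.91 and then 2 to 2.65 in P72 and of 0.82 to 1.03 and then 1.58 to 2.07 in R72. Of 6 fibroblast and endothelial markers 2 rose in each genotype, near the share of all genes. Of 6 single positive thymocyte markers 3 rose and 1 fell in P72, and 2 rose and 1 fell in R72. Of 6 B cell markers 2 rose and 1 fell in P72 and 1 rose and 1 fell in R72, and of 4 erythroid markers tested 1 rose and 1 fell in P72 and 1 fell in R72. Defining markers that were not well above background on any array of a group included Elane (untreated P72), Pax5 (P72 at 4 h and R72 untreated and at 4 h), Klf1 (untreated P72 and R72 at 4 h), Pdgfra (untreated P72 and R72) and Cdh5 (P72 untreated and at 4 h and R72 at 4 h). On the p53-/- arrays the macrophage sum was 46.2 and 46.6 untreated and 44.5 at 4 h, and on the p53+/+ arrays 35.8 and 36.1 untreated and 68.2 at 4 h. The part of these marker levels in the fall of the replication genes was not tested.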

How the data were processed

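RNA of 32 samples was labelled with Cy3 (500 ng, per the labels' protocols) and read on 1-colour Agilent arrays, scanned with Feature Extraction 9.5.3 per the submitters' processing notes (9.5.3.1 per the file headers). The deposited values are the processed intensity, background corrected and detrended but not scaled between arrays per the file headers, and, as an alternative, the authors' log2 table, whose method is not given in the sources used here and whose column medians were 6.2 to 6.23. Probe coordinates in the deposited files are of mm7 and were not used.

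From these, log2 processed intensity minus each array's 75th percentile was computed. Control spots and outlier-flagged spots (0.223% of values) were left out, spots of a probe were averaged, and a probe stayed in if 4 or more of the 32 arrays called it well above background. Where a gene name had several probes, the brightest on average was used. Names were updated through RefSeq for 22951 probes. Groups were fitted with limma 3.58.1 in R 4.3.3 (P72 and R72 on their 24 arrays, p53 comparisons on all 32), with Benjamini-Hochberg adjustment over all genes and a threshold of 0.05. The code was tested on simulated data. The number of arrays limits the precision.

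The 39 members and all lists were chosen with earlier results of these data known. Every member may be named; full values by sample are given for the member with the smallest p of each role class at 4 h in P72, members called against the common direction, those called between P72 and R72, and the 3 with the smallest p between the p53 responses. Dbf4 and Rrm2 were added after their values were seen. Of other lists, up to 4 genes with the smallest p are named, plus Cdkn1a. Same-numbered samples were checked for pairing: their deviations correlated at -0.274 to 0.54 over 36 pairs, and all pairs were over 0.1 for P72 at 4 h and 0 h, R72 at 4 h and 2 h, and P72 and R72 at 4 h, so a replicate block was fitted as an alternative. The alternatives also changed background, normalization, centring, filter, probe choice, slide block and single arrays.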

Additional observations from a re-analysis of the deposited data

Results flagged for a closer look

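In 11 of 228 groups of 4 arrays (4.82%), a single array stood apart from the other 3, where chance gives about 1 in 20. In P72 at 4 h these were Orc1 in replicate 1 (-1.68), Mcm10 in replicate 2 (1.63) and Rfc4 in replicate 2 (1.84), all low. Untreated arrays gave Uhrf1 in P72 replicate 4 (4.22), which was high, and Pola1 in R72 replicate 1 (1.59), which was low. In R72 at 2 h Mcm3 (3.59), Rfc3 (0.88) and Rfc5 (3.37) were high in replicate 4, and Cdc45 (0.01) was high in replicate 1. In R72 at 4 h Prim2 in replicate 3 (0.50) and E2f1 in replicate 4 (-1.55) were low.

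The p53+/+ and p53-/- responses differed by the limma test of the difference itself for 15 genes over both irradiated times. The values were -1.31 for Ccne1, -1.23 for Rfc3, -1.22 for Mcm6, -1.19 for Cdc6, -1.11 for Gins1, -1.06 for Uhrf1, -0.99 for Pcna, -0.96 for Dbf4, -0.94 for Cdt1, -0.86 for Orc6, -0.79 for Slbp, -0.77 for Mcm2, -0.77 for Rfc4, -0.76 for Fen1 and -0.72 for Chaf1a. At 4 h alone it differed for 9, with -1.70 for Ccne1, -1.44 for Mcm6, -1.30 for Uhrf1, -1.23 for Pcna, -1.16 for Cdc6, -1.13 for Gins1, -0.99 for Dbf4, -0.98 for Mcm2 and -0.88 for Fen1.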

How the results depend on the processing

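No gene of the 38 called in the main fit turned its direction under an alternative. Counts were compared by their total of higher and lower genes, so a shift from lower to higher within a count was not labelled. Leaving out single arrays aside, 178 counts over the 38 genes under alternatives stayed within 1.5 times the main count and 48 did not, and of single-gene values 163 kept their call and 18 lost it. Leaving out an array ended the call of E2f1 (P72 against R72 at 2 h) in 6 of 8 cases and of Prim1 (P72 at 2 h) in 4 of 8. With normexp background the distance of the 38 genes from the all-gene median at 2 h in R72 was 0.22 in place of -0.24. The replicate block changed no count by over 1.5 times (for example 36 of 38 at 4 h in P72 and in R72, 7 and 12 at 2 h, and 18 p53 response differences).

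The 4 h counts against 0 h moved by over 1.5 times under no alternative in P72 and only with replicates 1 and 3 alone in R72. Leaving out an array gave 33 to 36 genes in each, and from 2 h to 4 h 31 to 34 in P72 and 31 to 33 in R72. At 2 h leaving out an array gave 3 to 6 in P72 and 6 to 13 in R72, 0 to 1 for P72 against R72, and 0 for all other P72 and R72 differences. For p53 the same gave 11 to 15 at 4 h in p53+/+, 4 to 5 over its irradiated arrays, 1 to 2 in p53-/-, and 4 to 12 and, at 4 h, 2 to 6 response differences.

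Normexp background gave 2 (P72) and 0 (R72) at 2 h, 9 at 4 h and 4 over the irradiated arrays in p53+/+, 3 in p53-/-, 18 between the irradiated p53 groups, and 4 and, at 4 h, 1 response differences. Centring on the array median gave 12 lower in P72 at 2 h (15% of all genes). In p53+/+ it gave 31 lower at 4 h (39.1%) and 26 over the irradiated arrays (33.7%), and in p53-/- 3 higher (0.273%). It gave 30 and, at 4 h, 32 response differences, all lower in p53+/+ (9.86% and 14.6% of all genes). Quantile normalization gave 1 gene in p53-/- at 4 h. The authors' table gave 5 in p53+/+ and 16 in p53-/- over irradiated arrays and 2 in p53-/- at 4 h. No filter gave 5 response differences at 4 h, and a slide block gave 5, 3 at 4 h, and 11 between the irradiated groups. The single P72 against R72 call at 2 h became 0 under normexp, quantile, median centring, the authors' table, no filter, the mean over probes and the slide block.

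Other alternatives were chosen after seeing the data. A scan date block gave 8 in P72 at 2 h. The first scan date alone gave 2 in P72 and 0 in R72 at 2 h, 0 between genotypes at 2 h, and 1 from 2 h to 4 h in R72, and later dates alone gave 0, 6 and 0 at 2 h. Replicates 1 and 3 alone gave 0, 0 and 0 at 2 h, 4 and 0 from 2 h to 4 h, and 22 at 4 h in R72. Replicates 2 and 4 alone gave 1, 0 and 0 at 2 h and 13 and 0 from 2 h to 4 h. These keep fewer samples. Normexp with a capped background could not be fitted. The cause of the other moves was not tested.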

Other observations

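Rb1, the retinoblastoma protein that restrains E2F factors, moved against most of the genes described above and was chosen after its values were seen. At 4 h it rose by 0.55 ± 0.09 in P72 (limma, adjusted p = 2.79e-05) and by 0.53 ± 0.09 in R72 (adjusted p = 6.95e-05). Of all genes, 36.4% and 29.1% rose. Both rises depend on the scaling. With arrays centred on their median, the all-gene median at 4 h was -0.51 in P72, in place of 0.11. In R72 it was -0.38 in place of 0.1. That shift applies to every gene and is about the size of these rises. On the single p53+/+ array at 4 h Rb1 was higher by 1.26 ± 0.15, and Xist differed there too. In p53-/- the difference was 0.23 ± 0.15 and did not pass the test (adjusted p = 0.782).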
